A study of Mus musculus with 6 samples.

Results

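The genes described here encode the steps by which glucose enters the cell and is turned into pyruvate and lactate, together with the oxygen-sensing HIF system and some of its best known targets. A list of 39 genes was set by function: glucose transporters, the enzymes of glycolysis by isoform, lactate dehydrogenases and lactate transporters, the kinases of pyruvate dehydrogenase, and hypoxia response genes. Probe sets of the deposited table were assigned to them through the platform annotation, counting only probe sets annotated to a single gene. This gave 42 probe sets for 36 of the 39 genes, out of 35512 probe sets and 19938 genes in the table. Gpi1, Pfkfb1 and Eno1 had no such probe set and are not analysed here. Ero1l is given under its current symbol, Ero1a.

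The arrays read total RNA of a mouse leukemia cell line named MLL-AF10 after the fusion of the histone methyltransferase MLL with AF10. All samples were the same line in the same medium, with fetal bovine serum and medium conditioned by WEHI cells. The 6 arrays fall into cells treated with an IKK inhibitor at 0.5 µM (3 arrays) and cells treated with vehicle (3 arrays). The labels give neither the inhibitor's name, the time of treatment, the making of the line, nor whether samples of a group were separate cultures. Each p-value therefore reflects the spread among these 6 arrays, possibly technical spread alone, and their number limits the precision.

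Glycolysis splits glucose into pyruvate, and lactate dehydrogenase then reduces pyruvate to lactate, which leaves the cell through proton-coupled monocarboxylate transporters. Pyruvate dehydrogenase kinases (PDKs) hold back the use of pyruvate by pyruvate dehydrogenase in the mitochondria. Prolyl hydroxylases mark the HIF-1 alpha protein for destruction when oxygen is present, so HIF-1 raises the genes of glucose uptake, glycolysis and lactate export mainly when oxygen is low. IKK kinases activate NF-kB by marking its inhibitors for destruction. In myeloid cells, NF-kB and HIF-1 are both known to act on glycolytic genes, and Hif1a is itself a known NF-kB target.

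With the IKK inhibitor, a few genes along the pathway were called, while most of the genes measured did not pass the test. A call beside an uncalled isoform does not show that the isoforms differed in their change. The transporter genes Slc2a6 and Slc2a1, the aldolase gene Aldoc and the phosphoglycerate kinase gene Pgk1 were higher with the inhibitor. The lactate transporter gene Slc16a1 and the phosphofructokinase gene Pfkp were lower. Of the 36 genes, 4 were called higher and 2 lower, and 30 did not pass (limma, Benjamini-Hochberg adjusted p under 0.05 over all 19847 genes tested). The 6 calls are 16.7% of the 36 genes, against 13.9% of all genes tested, so the share was near the background. For calls in a single direction the background was 7.1% higher and 6.75% lower. The median log2 fold change was 0.03 over the 36 genes and 0.01 over all genes tested, and its sign turned with the scaling of the arrays. No member differed by 2-fold, and only Slc2a6 differed by more than 1.5-fold.

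The 3 inhibitor arrays lay wholly above the 3 vehicle arrays in 13 of the 36 genes and wholly below them in 6. That is 52.8% of the genes, against 33.0% of all genes tested. An unadjusted p under 0.05 was found for 14 of the 36 genes, 38.9%, against 27.2% of all genes tested. Most of the 36 are bright: 29 lay at or above the median intensity of 161. Among all genes at or above that median, the groups did not overlap in 52.1%, and 23.5% were called. The part that brightness has in the member counts was not tested beyond these shares.

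**Figure D1:**
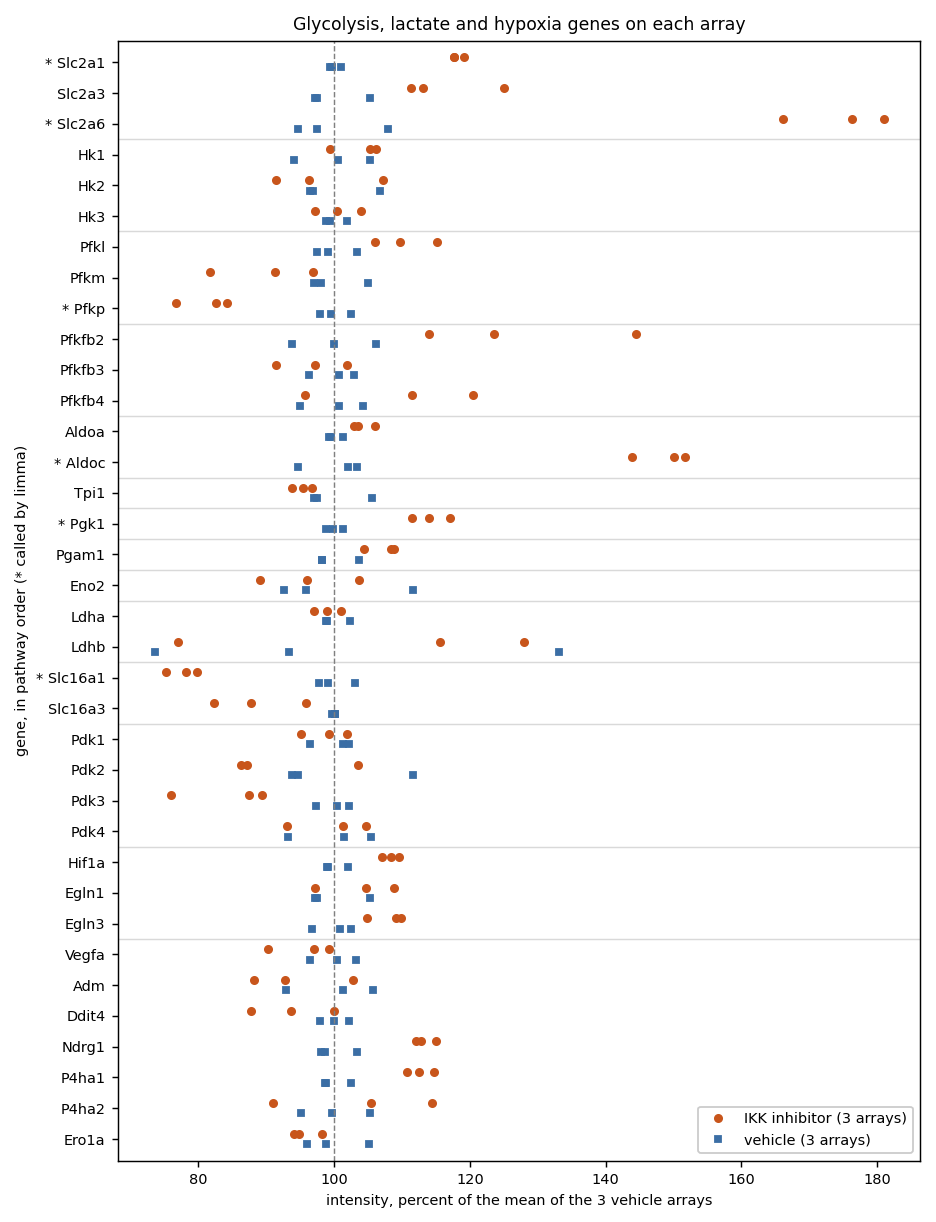
Intensity of each of the 36 genes on each array, as a percentage of the mean of its 3 vehicle arrays, in pathway order. Circles are IKK inhibitor arrays and squares vehicle arrays, and asterisks mark the 6 genes called by limma. Slc2a6 and Aldoc stand farthest to the right, and Slc16a1 and Pfkp lie wholly to the left of their vehicle arrays.

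Cell markers moved with the treatment beside these genes. Calls covered 63.2% of the monocyte and macrophage, 72.7% of the neutrophil and 61.5% of the progenitor list. Of all genes tested 13.9% were called, and of those at or above the median intensity 23.5%. Of 19 monocyte and macrophage markers, 12 were higher and none lower, with a median log2 fold change of 0.54. Their summed intensity was 21020 to 22310 in inhibitor cells, against 11640 to 12110 in vehicle cells. Gpnmb (1.78), Csf1r (1.23), Adgre1 (1.43) and Marco (2.69) had the smallest p. Fcgr1, Ccr2, C1qa, C1qb, C1qc, Cx3cr1 and Vcam1 did not pass. Of 11 neutrophil genes, 8 were higher and none lower, Mmp9 (1.45), Ngp (0.74), S100a9 (0.72) and S100a8 (0.84) with the smallest p. Their median was 0.66, with sums of 14170 to 14980 in inhibitor cells, against 9828 to 10110 in vehicle cells. Among 13 progenitor genes, 7 were lower and 1, Ptprc (0.19), was higher, with a median of -0.24. Mpo (-2.62), Ms4a3 (-0.56), Gfi1 (-0.34) and Prtn3 (-0.28) had the smallest p. With an array left out, 4 were lower without inhibitor array 1 or vehicle array 2 or 3, 5 without inhibitor array 3 or vehicle array 1 and 7 without inhibitor array 2, and none was higher in any of these. The sums were 22490 to 22860 in inhibitor cells, against 25430 to 26330 in vehicle cells. The part of these shifts in the changes of the glycolytic genes was not tested, and in bulk RNA fewer cells of a type and less RNA per cell cannot be told apart.

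Markers of other lineages were called for 27.3% of the B cell, 18.2% of the stromal and 9.09% of the T cell list, against 13.9% of all genes tested. Cd28 was higher among 11 T cell markers, Cd22 and Blnk higher and Igll1 lower among 11 B cell markers, and Acta2 and Pdpn higher among 11 stromal markers. None of 8 erythroid markers passed by limma, at an unadjusted p under 0.05 or with an intensity trend and robust prior. Acta2 carried the summed stromal intensity, 2290 to 2313 in inhibitor cells and 1726 to 1872 in vehicle cells. Without Acta2, a check chosen after seeing the data, the stromal sum was 1029 to 1190 in inhibitor cells and 1027 to 1194 in vehicle cells. The sums of T cell markers (1629 to 1790 in inhibitor cells and 1536 to 1637 in vehicle cells), of B cell markers and of erythroid markers overlapped between the groups. The table has no detection calls, so no marker can be called absent. The myeloid leukemia genes Hoxa9 and Meis1 averaged 1791 and 1116 in inhibitor cells and 1935 and 1076 in vehicle cells.

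Promoter sequence of the 6 genes called is shown because HIF and MYC, regulators of this pathway, bind short motifs close to the start of such genes. The sequences are the 250 bases before the annotated start, from RefSeq on GRCm38.p6, read 5′ to 3′ on the strand of the gene. Capitals mark ACGTG and GCGTG, the core letters of the HIF response element, on either strand (CACGT and CACGC on the strand shown). MYC and its relatives bind the E-box CACGTG, which contains ACGTG.
Slc2a6, chr2:27027999-27028248, minus strand: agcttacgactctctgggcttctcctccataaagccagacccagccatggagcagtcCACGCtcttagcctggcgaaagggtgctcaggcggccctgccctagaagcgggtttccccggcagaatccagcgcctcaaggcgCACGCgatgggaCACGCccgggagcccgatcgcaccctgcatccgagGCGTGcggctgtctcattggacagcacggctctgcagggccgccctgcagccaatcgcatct
Aldoc, chr11:78322823-78323072, plus strand: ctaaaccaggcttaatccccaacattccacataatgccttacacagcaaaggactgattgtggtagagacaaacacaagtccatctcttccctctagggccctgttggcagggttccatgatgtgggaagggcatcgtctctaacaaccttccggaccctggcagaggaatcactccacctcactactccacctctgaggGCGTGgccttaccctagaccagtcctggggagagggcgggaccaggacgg
Slc2a1, chr4:119108495-119108744, plus strand: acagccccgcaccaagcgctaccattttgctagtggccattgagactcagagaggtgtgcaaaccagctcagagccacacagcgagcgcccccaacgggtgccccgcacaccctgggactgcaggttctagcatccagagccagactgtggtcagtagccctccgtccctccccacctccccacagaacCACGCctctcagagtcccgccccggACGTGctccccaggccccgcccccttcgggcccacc
Pgk1, chrX:106186850-106187099, plus strand: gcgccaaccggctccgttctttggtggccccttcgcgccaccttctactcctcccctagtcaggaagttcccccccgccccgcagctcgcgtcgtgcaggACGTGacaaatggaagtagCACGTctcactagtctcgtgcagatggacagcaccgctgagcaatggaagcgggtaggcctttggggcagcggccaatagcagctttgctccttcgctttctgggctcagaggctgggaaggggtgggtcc
Slc16a1, chr3:104638414-104638663, plus strand: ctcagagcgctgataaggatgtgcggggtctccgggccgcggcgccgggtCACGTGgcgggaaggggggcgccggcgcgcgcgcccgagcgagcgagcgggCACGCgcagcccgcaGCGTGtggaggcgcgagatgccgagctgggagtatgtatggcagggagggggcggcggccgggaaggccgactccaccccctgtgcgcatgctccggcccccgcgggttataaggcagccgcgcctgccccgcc
Pfkp, chr13:6648772-6649021, minus strand: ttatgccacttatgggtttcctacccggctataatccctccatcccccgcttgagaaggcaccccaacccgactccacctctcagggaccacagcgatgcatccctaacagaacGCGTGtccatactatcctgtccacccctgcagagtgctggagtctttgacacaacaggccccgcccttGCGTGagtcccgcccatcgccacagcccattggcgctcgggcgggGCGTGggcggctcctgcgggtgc

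Both the genes called higher and those called lower held these letters. GCGTG stood at 4 places before Slc2a6, 3 before Pfkp and 2 before Slc16a1. Slc16a1 alone of the 6 windows held a CACGTG, and its overlapping ACGTG was found on both strands. A CACGTG also stood before genes that were not called, namely Ldha, Hif1a, Pfkm, Pdk2, Pfkfb2 and Pfkfb3. Pgk1 held 2 ACGTG and no GCGTG, and Slc2a1 had 1 of each. For Aldoc, which has 2 annotated windows, the upstream one is shown, with 1 GCGTG. Of the 39 listed genes, 37 had promoter entries, with 56 windows between them. Of these windows, 78.6% held ACGTG or GCGTG within the 250 bases, against 38.6% of 32851 windows of all genes. For each motif alone, the shares were 46.4% and 16.6% for ACGTG, 55.4% and 28.2% for GCGTG, and 12.5% and 6.02% for CACGTG. The windows of the listed genes were also richer in G and C, with a median of 60.0%, against 52.4% for all windows, and the part of base composition in these shares was not tested. The list holds known HIF targets by choice, and some windows of the same gene overlap. The shares therefore describe the list and not an effect of the inhibitor. A match is a stretch of letters and not a site shown to be bound.

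Of 3 glucose transporter genes, 2 were called higher, and in all 3 the inhibitor arrays lay above the vehicle arrays. Among all genes tested, 7.1% were called higher, and in 15.8% the inhibitor arrays lay wholly above the vehicle arrays. A change of the step as a whole was not tested. Slc2a6 encodes GLUT6, a hexose transporter found mainly on internal membranes. It had intensities of 1006, 1096 and 1068 in IKK inhibitor cells, against 573, 653 and 590 in vehicle cells. The lowest inhibitor array stood far above the highest vehicle array. The log2 fold change was 0.80 ± 0.07 (SE), or 1.747-fold, with an adjusted p of 0.000764, and Slc2a6 was called in all 20 other settings tried.

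Slc2a1 encodes GLUT1, the main glucose transporter of growing blood cells. Its intensities were 2481, 2515 and 2481 in inhibitor cells and 2097, 2130 and 2102 in vehicle cells. The groups were tight and well apart, though the difference was small, at 0.24 ± 0.04 on the log2 scale (SE, adjusted p = 0.0155). Among the settings that left out or rescaled arrays, the call was lost without vehicle array 1, 2 or 3 (adjusted p = 0.0561, 0.0603 and 0.0681) or inhibitor array 1 (0.0624), and with median centring of the arrays (0.109). Slc2a3, which encodes the high-affinity transporter GLUT3, was dim. Its values were 85.7, 94.8 and 84.4 in inhibitor cells and 73.9, 73.7 and 79.9 in vehicle cells, which do not overlap, but its log2 fold change of 0.22 did not pass (adjusted p = 0.0759).

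**Figure D2:**
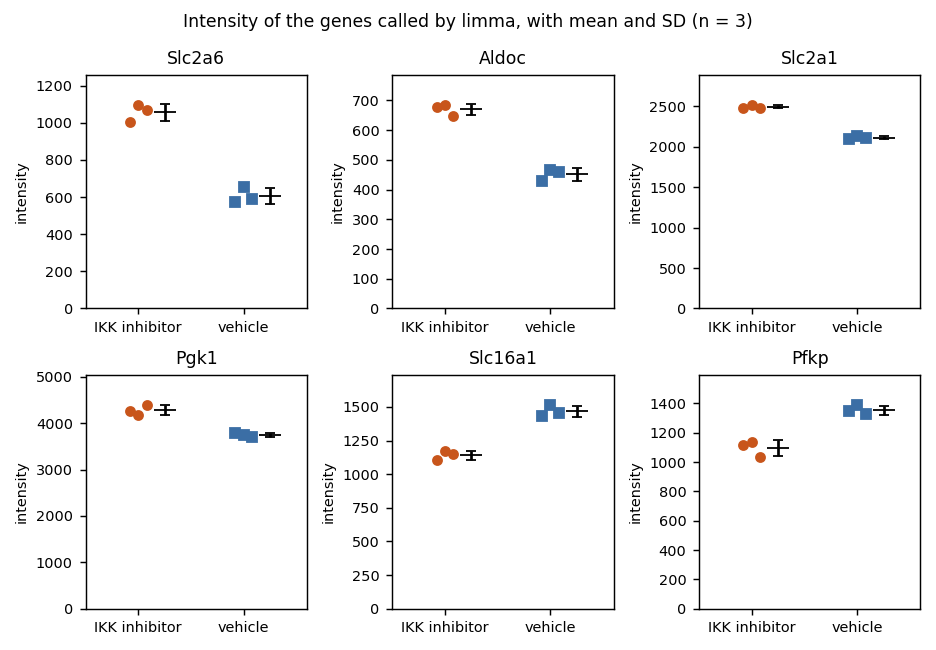
Intensity on each array of the 6 genes called by limma, IKK inhibitor at the left and vehicle at the right of each panel, with each group's mean and SD (n = 3) beside the points. All axes start at 0. Groups do not overlap in any panel, and the ratio between the groups is widest for Slc2a6.

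Hexokinases trap glucose in the cell as glucose 6-phosphate. With the brightest probe set of each gene, none of the 3 isoforms passed by limma, had an unadjusted p under 0.05 or was called with an intensity trend and robust prior. For Hk1 this depends on the probe set. Hk2, the isoform often raised in tumours, had intensities of 457, 482 and 536 in inhibitor cells and 482, 534 and 484 in vehicle cells. Hk3, the isoform typical of myeloid cells, had 1406, 1452 and 1502 in inhibitor cells, against 1473, 1437 and 1428 in vehicle cells. For both the groups lay on top of each other, with 95% intervals of the log2 fold change of -0.21 to 0.16 for Hk2 and -0.11 to 0.12 for Hk3.

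Hk1 is represented by 2 probe sets that differ. The brighter one, which stands for the gene by the rule on brightness, averaged 3771 ± 135.5 in inhibitor cells and 3641 ± 204 in vehicle cells (SD, n = 3 each), with a log2 fold change of 0.05. It is annotated to Hk1 through a single sequence record, and that record is shared by all 16 probe sets listed for Hk1 together with the ribosomal protein gene Rpl17. Which transcript it reads is therefore uncertain. The other probe set carries 8 records, RefSeq transcripts of Hk1 among them. Its mean was 2004 in inhibitor cells and 1765 in vehicle cells, a log2 fold change of 0.18 (95% interval 0.05 to 0.32) with all inhibitor arrays above all vehicle arrays. In the limma fit to single probe sets its unadjusted p was 0.0144, and it did not pass after adjustment (adjusted p = 0.081).

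Phosphofructokinase, the committed step of glycolysis, is assembled from liver, muscle and platelet type subunits, and of their 3 genes 1 was called lower. Pfkp, the platelet type, had intensities of 1119, 1139 and 1038 in inhibitor cells, against 1348, 1387 and 1325 in vehicle cells. All inhibitor arrays were lower, and Pfkp fell by 0.30 ± 0.06 on the log2 scale (SE, adjusted p = 0.0158). That call was lost without vehicle array 1, 2 or 3 (adjusted p = 0.0522, 0.0698 and 0.0538) or inhibitor array 1 (0.0545). Pfkl, the liver type, had 1140, 1180 and 1238 in inhibitor cells and 1066, 1112 and 1049 in vehicle cells. Its groups were apart in the opposite direction, with a log2 fold change of 0.14 that did not pass (adjusted p = 0.15). Pfkm, the muscle type, did not pass either, with a log2 fold change of -0.16 (adjusted p = 0.246).

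The PFKFB enzymes make and break down fructose 2,6-bisphosphate, the strongest activator of phosphofructokinase. Of 3 genes tested none passed by limma, 1 had an unadjusted p under 0.05 and 1 was called with an intensity trend and robust prior. Pfkfb2 was that gene in both cases. It had 225, 263 and 208 in inhibitor cells and 171, 182 and 194 in vehicle cells, groups that do not overlap, with a log2 fold change of 0.34 ± 0.10 (SE, adjusted p = 0.0624). Pfkfb3, the hypoxia-inducible isoform, had a log2 fold change of -0.05 (95% interval -0.19 to 0.09). For Pfkfb4 it was 0.12 (-0.10 to 0.34).

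Further down, aldolase cleaves fructose 1,6-bisphosphate, and of its 2 measured isoforms 1 was called. Aldoc, the brain type aldolase and a known hypoxia-inducible gene, had intensities of 677, 684 and 649 in inhibitor cells, against 427, 466 and 460 in vehicle cells. Every inhibitor array lay above every vehicle array. Aldoc rose by 0.57 ± 0.06 on the log2 scale (SE), or 1.49-fold, with an adjusted p of 0.00141, and was called in all 20 other settings. Aldoa, the main aldolase of glycolysis, averaged 5349 ± 84.3 in inhibitor cells and 5137 ± 58.0 in vehicle cells (SD, n = 3 each). Its log2 fold change of 0.06 did not pass (adjusted p = 0.484).

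Of the members tested from triose phosphate isomerase to enolase, Pgk1, which makes the first ATP of glycolysis, was the one called. It had 4268, 4172 and 4383 in inhibitor cells and 3792, 3737 and 3699 in vehicle cells. The groups were clearly apart by a small margin, 0.19 ± 0.05 on the log2 scale (SE, adjusted p = 0.04). Of its 3 probe sets, 2 hold identical values and the third gave 0.19 as well. Pgk1 has processed copies in the genome, so signal from such copies could not be told apart from that of the gene. Among the settings that left out or rescaled arrays, the call did not hold without vehicle array 1, 2 or 3 (adjusted p = 0.0927, 0.128 and 0.138), inhibitor array 1 or 3 (0.122 and 0.0853), with quantile normalization (0.0976) or with median centring (0.197).

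The other enzymes of this stretch did not pass. Tpi1 (triose phosphate isomerase) had a log2 fold change of -0.07, Pgam1 (phosphoglycerate mutase) 0.10 and Eno2 (the neuronal enolase) -0.05. Eno2 was dim, with means of 82.5 in inhibitor cells and 85.8 in vehicle cells. From hexokinase to enolase, 12 genes were tested, of which 2 were higher, 1 was lower and 9 did not pass.

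**Figure D3:**
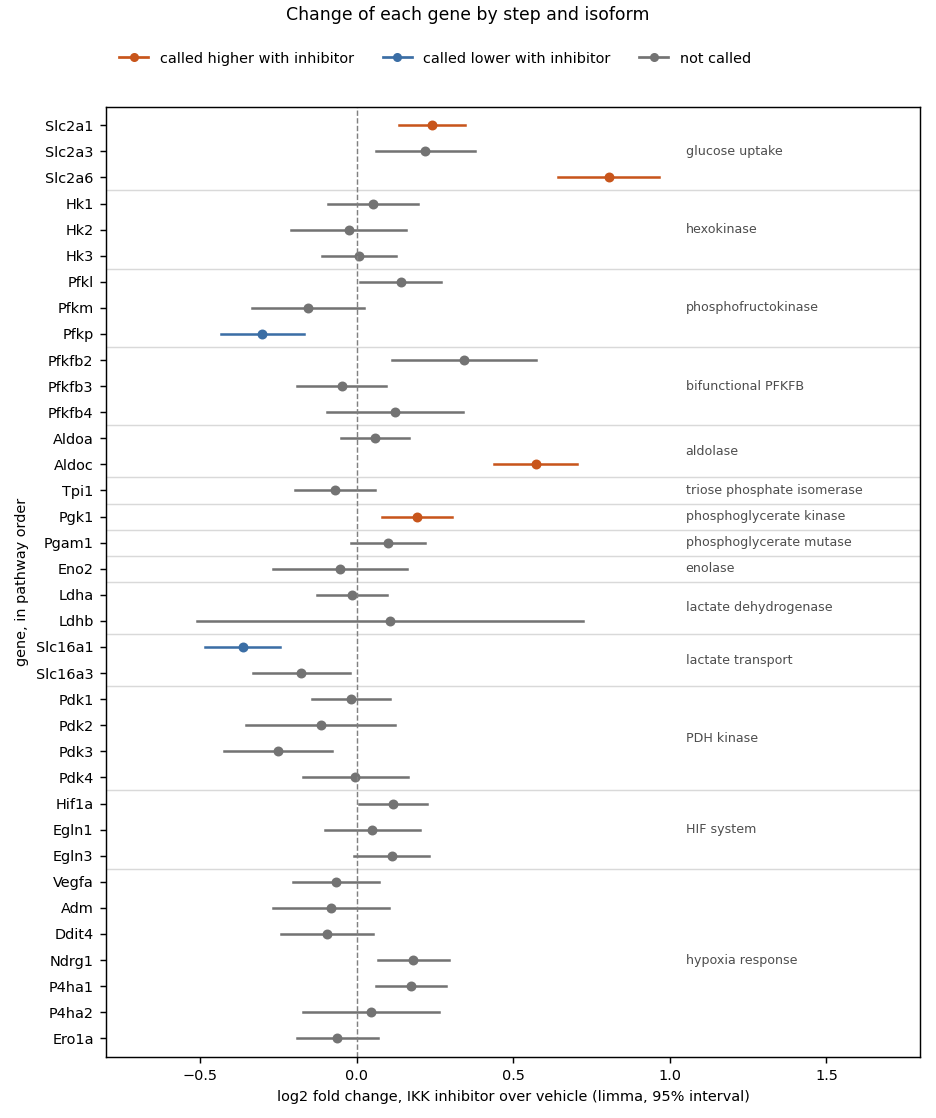
Log2 fold change of each of the 36 genes, IKK inhibitor over vehicle, with its 95% interval from limma, grouped by step. Orange marks genes called higher, blue genes called lower and grey genes that did not pass. Called and uncalled isoforms stand side by side within the transporter, phosphofructokinase, aldolase and lactate transport steps, and the interval of Ldhb is the widest.

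At the lactate end, the transporter gene Slc16a1 was lower with the inhibitor, and neither its relative Slc16a3 nor a lactate dehydrogenase gene passed. Slc16a1 encodes MCT1, which carries lactate and pyruvate with a proton in either direction. Its intensities were 1103, 1171 and 1147 in inhibitor cells, against 1436, 1512 and 1455 in vehicle cells. The groups were far apart, and Slc16a1 fell by 0.36 ± 0.05 on the log2 scale (SE), to 0.777 of the vehicle level (adjusted p = 0.0057). It was called in all 20 other settings. Slc16a3 encodes MCT4, the exporter of highly glycolytic cells and a known HIF-1 target. It had 1812, 1930 and 2110 in inhibitor cells and 2194, 2203 and 2205 in vehicle cells. All inhibitor arrays were lower, but they spread widely while the vehicle arrays were nearly the same, and the log2 fold change of -0.18 did not pass (adjusted p = 0.135).

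Ldha, the form of lactate dehydrogenase that favours lactate, showed overlapping groups. It had 4895, 4996 and 4796 in inhibitor cells and 4896, 4884 and 5060 in vehicle cells, with a log2 fold change of -0.01 (95% interval -0.13 to 0.10). Ldhb, the form that favours pyruvate, had the widest interval of the 36 genes. Its brighter probe set ran from 76.0 to 126 in inhibitor cells and from 72.6 to 131 in vehicle cells, so that its interval reached from -0.51 to 0.72. Its other probe set gave a log2 fold change of -0.08.

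PDKs switch off pyruvate dehydrogenase by phosphorylation. None of the 4 passed by limma, while 1 had an unadjusted p under 0.05 and 1 was called with an intensity trend and robust prior. Pdk3 was that gene. It had 728, 744 and 632 in inhibitor cells and 810, 837 and 851 in vehicle cells, so all inhibitor arrays were lower, with a log2 fold change of -0.25 ± 0.07 (SE, adjusted p = 0.0678). Pdk1, the isoform best known as a HIF-1 target, averaged 958 ± 32.7 in inhibitor cells and 970 ± 30.1 in vehicle cells (SD, n = 3 each), and its log2 fold change was -0.02. For Pdk2 it was -0.12 and for Pdk4, a dim gene that fasting and fatty acids raise in other tissues, -0.0049.

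The oxygen-sensing genes and the hypoxia targets gave no call. Of 10 genes tested, none passed by limma, 3 had an unadjusted p under 0.05, and 4 were called with an intensity trend and robust prior. Hif1a had intensities of 3224, 3184 and 3259 in inhibitor cells and 2941, 2946 and 3036 in vehicle cells. The groups were apart, with a log2 fold change of 0.12 (95% interval 0.01 to 0.22, adjusted p = 0.158). Egln3, a HIF prolyl hydroxylase gene that HIF itself induces, did not pass, with a log2 fold change of 0.11 (adjusted p = 0.215). The same holds for Egln1, the main oxygen sensor of most cells, at 0.05 (adjusted p = 0.693).

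Among the 7 targets, Ndrg1 and P4ha1 came nearest to the threshold. Ndrg1, a stress-responsive gene linked to differentiation, had 892, 916 and 898 in inhibitor cells and 781, 822 and 785 in vehicle cells, a log2 fold change of 0.18 (adjusted p = 0.0521). P4ha1, a subunit of collagen prolyl hydroxylase, had 1456, 1406 and 1429 in inhibitor cells, against 1254, 1253 and 1301 in vehicle cells, a log2 fold change of 0.17 (adjusted p = 0.0565). In both genes the groups do not overlap. Each was called in 8 of the 20 other settings, among them quantile normalization (adjusted p = 0.0322 for Ndrg1 and 0.0418 for P4ha1). Ndrg1 thus lay just outside the threshold, and Pgk1 just inside it.

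The remaining hypoxia targets showed overlapping groups. Vegfa, the vascular growth factor gene, averaged 1689 ± 82.3 in inhibitor cells and 1768 ± 60.3 in vehicle cells (SD, n = 3 each), with a log2 fold change of -0.07 (95% interval -0.20 to 0.07). Ddit4, which restrains mTORC1, had a log2 fold change of -0.10, and Adm, which encodes the vasodilator adrenomedullin, one of -0.08. The values were 0.05 for P4ha2 and -0.06 for Ero1a, which encodes an oxidase of the endoplasmic reticulum.

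Isoforms of the same step can also be set against each other within an array, which removes any factor that scales a whole array. For each pair, the log2 value of one gene minus that of the other was taken on each array, and the inhibitor and vehicle arrays were compared by an exact two-sided permutation test. With 3 arrays in each group the smallest p this exact permutation test can give is 0.1, so no pair could pass. Of 23 pairs, 11 did not overlap between the groups, each at p = 0.1 by the exact test (adjusted p = 0.209 over the 23 pairs). That is 47.8% of the pairs. Single genes did not overlap in 33.0% of all genes tested and in 52.1% of those at or above the median intensity, so the count is not read as a result about isoforms. Pairs of the same step share genes and are not independent. The pairs with the largest movement were those with Slc2a6 and with Aldoc. Slc2a1 minus Slc2a6 had a within-array log2 difference of 1.30, 1.20 and 1.22 in inhibitor cells, against 1.87, 1.71 and 1.83 in vehicle cells, a movement of -0.56 ± 0.06 (SE). Slc2a3 minus Slc2a6 moved by -0.59 ± 0.09 and Aldoa minus Aldoc by -0.51 ± 0.06.

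Pfkl minus Pfkp moved by 0.44 ± 0.07 (SE), Pfkfb2 minus Pfkfb3 by 0.39 ± 0.08 and Pfkl minus Pfkm by 0.30 ± 0.11, all without overlap. Slc16a1 minus Slc16a3 moved by -0.19 ± 0.06, again without overlap, and Pdk1 minus Pdk3 by 0.23 ± 0.10. With the brightest probe set of each gene, the 3 hexokinase pairs and Ldha minus Ldhb overlapped. So did Slc2a1 minus Slc2a3, which moved by 0.02 ± 0.06, although only Slc2a1 of that pair was called. With the Hk1 probe set that carries RefSeq transcripts in place of the brighter one, 13 of the 23 pairs did not overlap. Hk1 minus Hk2 and Hk1 minus Hk3 were then among the pairs without overlap.

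**Figure D4:**
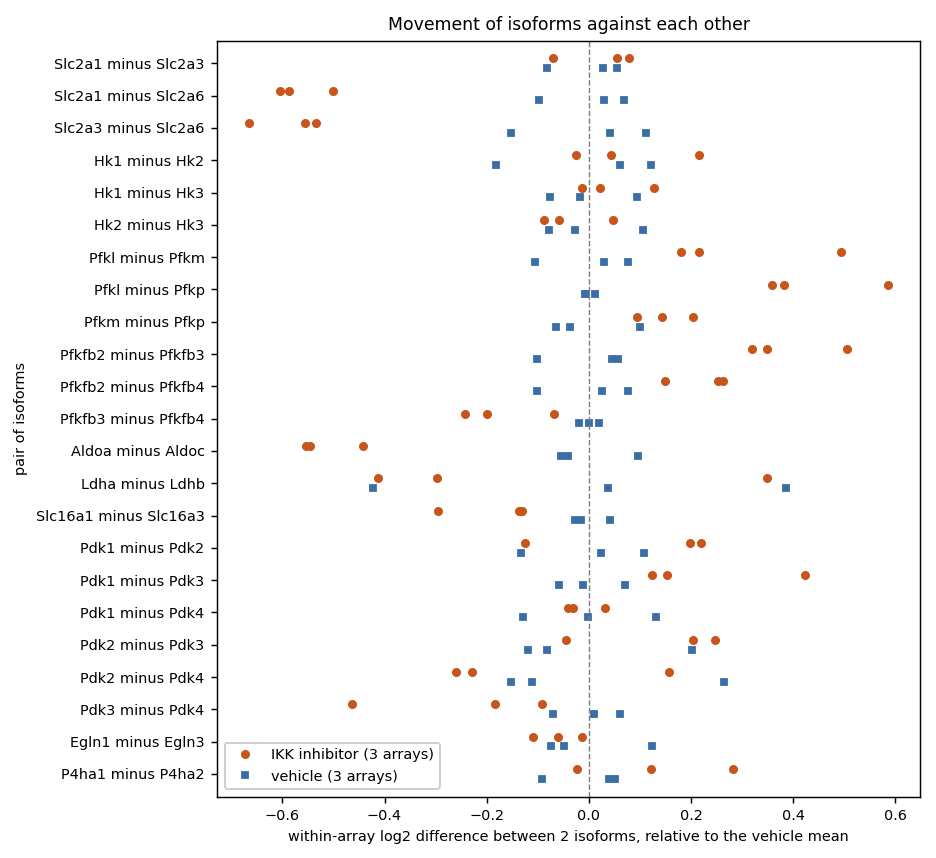
Within-array log2 difference between 2 isoforms of the same step, relative to the mean of the 3 vehicle arrays, for 23 pairs. Circles are IKK inhibitor arrays and squares vehicle arrays. In 11 pairs the groups do not overlap, with the widest gaps for Slc2a6 against the other transporters and for Aldoa minus Aldoc.

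Other genes of glucose and hypoxia biology were taken from 8 further lists, with 172 genes listed and 162 tested. Of these, 18 were higher and 17 lower, 21.6% against 13.9% of all genes tested. Among all genes at or above the median intensity, 23.5% were called, but the lists also hold dimmer genes. Whether the share is an excess beyond brightness was not tested. Of the 35 calls in these lists, 15 held in every setting tried in which the gene was kept. The same 15 held when any array was left out. Their names are given below as firm calls, and the other 20 were lost in at least 1 setting.

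The thioredoxin-interacting protein gene Txnip had the smallest p of the 162. TXNIP binds glucose transporters and lowers glucose uptake, and its gene is switched on by glucose through the factors MondoA and ChREBP. Txnip had intensities of 952, 952 and 911 in inhibitor cells, against 532, 571 and 549 in vehicle cells, a log2 fold change of 0.77 ± 0.05 (SE, adjusted p = 0.000287). Its relative Arrdc4 rose by 0.89 ± 0.09 (SE, adjusted p = 0.00141), with 197, 241 and 218 in inhibitor cells and 110, 118 and 125 in vehicle cells. Myc, a broad activator of glycolytic genes, fell by 0.35 ± 0.05, to a mean of 1869 in inhibitor cells against 2381 in vehicle cells. All 3 calls were firm, and they were the only ones among the 19 regulators tested, whose median log2 fold change was 0.01.

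Among 26 other genes of glycolysis and gluconeogenesis, 2 were higher and 3 lower, with a median log2 fold change near 0. Pyruvate carboxylase (Pcx), which feeds pyruvate into oxaloacetate, rose by 0.53 ± 0.07. The mitochondrial phosphoenolpyruvate carboxykinase Pck2, which takes oxaloacetate back out, fell by 0.46 ± 0.05 (SE). Both were firm. The fructose transporter gene Slc2a5 (-0.35), the glucose 6-phosphatase gene G6pc3 (-0.25) and the urate transporter gene Slc2a9 (0.19) were called over all arrays, Slc2a5 and G6pc3 in 1 and Slc2a9 in 0 of the 6 leave-one-out settings. Gapdh is not analysed here, since each of its probe sets is annotated to several genes. A further 17 genes belonged to pyruvate and lactate handling, lactate dehydrogenase relatives among them, and to the pyruvate dehydrogenase complex. Their median was -0.09, and Pdha1 (-0.23) and Slc16a6 (-0.19) were lower. Neither of these 2 was called when any array was left out.

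Glycogen and hexose phosphate genes gave 3 higher and 1 lower call among 17 tested, all firm, with a median log2 fold change of 0.07. Pygl, the glycogen phosphorylase of liver and myeloid cells, had 2030, 2077 and 2094 in inhibitor cells and 1331, 1414 and 1403 in vehicle cells, a rise of 0.58 ± 0.05 on the log2 scale (SE, adjusted p = 0.000783). Pgm1, which moves phosphate between glucose 1-phosphate and glucose 6-phosphate, rose by 0.38, and Ugp2, which makes UDP-glucose, by 0.32. Pgm3, an enzyme of UDP-N-acetylglucosamine synthesis, fell by 0.36. In the pentose phosphate list, 2 of 12 genes were higher (H6pd at 0.24 and Taldo1 at 0.26) and 2 lower (Prps1 at -0.48 and Pgls at -0.23), of which Prps1 was firm, and the list's median was 0.12. H6pd was called in 2, and Taldo1 and Pgls in 1, of the 6 leave-one-out settings.

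Of 36 other genes known to be induced by hypoxia, 7 were higher and 3 lower, with a median log2 fold change of 0.04. Bnip3, a HIF target that marks mitochondria for removal, had 1693, 1766 and 1669 in inhibitor cells, against 1219, 1262 and 1257 in vehicle cells, a rise of 0.46 ± 0.05 (SE, adjusted p = 0.00209). The factor gene Klf10 also rose by 0.46 and Fam162a by 0.32. The carbonic anhydrase genes Car9 and Car12, classic hypoxia markers, moved the other way and fell by 0.35 and 0.51, and Zfp395 fell by 0.58. Without vehicle array 2 the calls of Car9 and Fam162a were lost (adjusted p = 0.0555 and 0.0546). The HIF-induced genes thus held firm calls in both directions, higher for Bnip3 and Klf10 and lower for Car12 and Zfp395. Of 16 HIF subunits and regulators, with a median of 0.04, the coactivator gene Ep300 (0.23) was higher and the ubiquitin ligase gene Cul2 (-0.27) lower, called in 1 and 2 of the 6 leave-one-out settings.

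The tricarboxylic acid cycle, which burns the pyruvate that is not turned into lactate, had 4 lower and 1 higher call among 19 genes, with a median log2 fold change of -0.11. That is 26.3% of the list, against 13.9% of all genes tested and 23.5% of those at or above the median intensity. Fh1 (fumarase) fell by 0.42 ± 0.07 (SE) and was firm. Idh3a (-0.39), Suclg2 (-0.26) and the mitochondrial Idh2 (-0.26) were lower and the cytosolic Idh1 (0.32) higher, each called in 1 to 3 of the 6 leave-one-out settings.

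**Figure D5:**
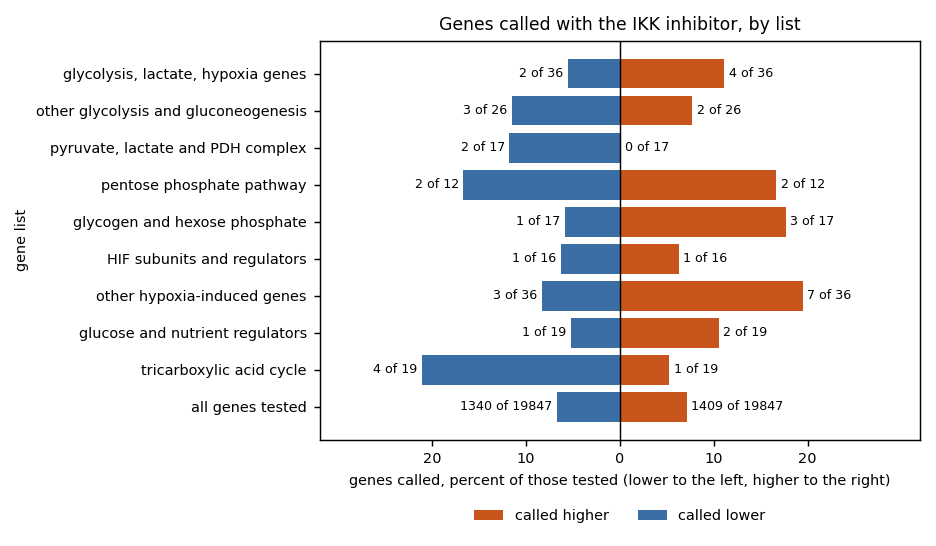
Genes called by limma in each list as a percentage of those tested, lower with the IKK inhibitor to the left and higher to the right, with the counts beside the bars. The bottom bar gives all 19847 genes tested, and the top bar the 36 genes described here, with 4 higher and 2 lower.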

How the data were processed

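Whole-transcript Affymetrix arrays were read for 3 IKK inhibitor and 3 vehicle samples. Per the submitters' processing notes, Expression Console of Affymetrix gave the deposited intensity values; its version, the summarization and the normalization are unstated in the labels. Values ran from 0.71 to 8185.74, and array medians from 112.5 to 123.6, so they were read as linear. Values below 16 (5.94% of all) were set to 16 and log2 was taken, which understates changes of dim genes; no member fell below 16. Array correlations across genes were 0.993 to 0.997 within and 0.988 to 0.991 between groups.

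Of 35512 probe sets, 21789 had 1 symbol in the platform annotation, 1621 several and 12102 were not listed; 21698 were matched to current symbols by Entrez number. The brightest probe set stood for a gene. The group contrast used limma 3.58.1 (R 4.3.3) without covariates, through lmFit and eBayes and Benjamini-Hochberg adjustment over 19847 genes; the fit was tested on simulated arrays. Other settings tried were a replicate block, other normalizations, floors of 1, 32 and 64, log2 of intensity plus 16, filters on dim genes, other rules for probe sets, an intensity trend with robust prior, array weights, other thresholds and leaving out each array; a preference for probe sets with a RefSeq accession was added after seeing the data. All members are accounted for by rule; of other lists, all called genes are named up to 6, otherwise the 6 with the smallest p, and of marker lists that move with the groups the 4 with the smallest p. The members, lists and alternatives were chosen with earlier results of these data known. Replicate numbers were not taken as pairs in the main fit, and whether the samples were paired is not known. Promoters are from RefSeq on GRCm38.p6.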

Additional observations from a re-analysis of the deposited data

How the results depend on the processing

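The calls of Slc2a6, Aldoc and Slc16a1 held in all 20 other settings. With each array left out, 2 to 4 members were called higher and 1 to 2 lower, 15 to 36 genes of the pathway lists were called, and all genes called numbered 788 to 1510 higher and 395 to 1300 lower; the members' median log2 fold change ran from -0.0038 without inhibitor array 3 to 0.0300. With a replicate block 2 members were higher and 681 of all genes lower, Slc2a1 and Pgk1 were lost (adjusted p = 0.054 and 0.096), and deviations of arrays with the same number correlated at 0.241, 0.133 and -0.0935 across genes, and not every array correlated best with its own number. Median centring gave 2 higher members and a median of -0.0078, and quantile normalization a median of -0.0063. Members called higher numbered 8 with a floor of 64, 7 with log2 of intensity plus 16 and 8 without genes below the 25th percentile. Higher and lower members numbered 9 and 4 above the median intensity, 11 and 4 with an intensity trend and robust prior, and 8 and 4 with array weights; the pathway lists then gave 58, 57 and 54 calls, and all genes 2208, 2220 and 2202 lower, with 2132 higher for array weights. At adjusted p under 0.01 the members gave 2 higher and 1 lower, the pathway lists 15, and all genes 662 higher and 322 lower. At 0.1 there were 8 higher members, and 2029 of all genes were lower. The cause of these shifts was not tested.

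Signs of uncalled members turned as follows. Over the settings that drop an array, log2 fold changes ran from -0.0902 to 0.025 for Hk2, -0.0176 to 0.0304 for Hk3, -0.1078 to 0.0281 for Eno2, -0.0297 to 0.0015 for Ldha, -0.0943 to 0.3335 for Ldhb, -0.044 to 0.0084 for Pdk1, -0.055 to 0.044 for Pdk4 and -0.029 to 0.136 for P4ha2. Quantile normalization gave -0.0317 for Aldoa, median centring -0.0272 for Hk3, and array weights -0.0156 for Hk3, 0.0361 for Eno2, 0.0078 for Pdk2 and 0.0072 for Adm.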
